A study of Mus musculus with 111 samples.

Results

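The comparison described here set 6 libraries of the tuberomammillary nucleus (TMN) of mice given the H3.3 Q5A virus against the 9 control libraries of the same time point, ZT0, which is lights on and the start of the inactive phase of a mouse. The libraries were chosen by their labels (virus Q5A, GFP or H3.3 and time point ZT0), and they are 15 of 111 in the whole series. All animals were young adult mice labelled C57BL/6 (C57BL/6J in the study's methods), males and females, with 1 mouse per library, and each had an adeno-associated virus (AAV) infused into the TMN on both sides some weeks earlier. The 4 GFP libraries carried the vector with GFP alone, the 5 H3.3 libraries a vector with tagged wild-type H3.3 plus GFP, and the 6 Q5A libraries the same tagged histone with its glutamine 5 replaced by alanine, plus GFP. The labels also give a cohort number. All 4 GFP, 4 H3.3 and 4 Q5A libraries were cohort 1, and 1 H3.3 and 2 Q5A libraries were cohort 2, so that no GFP library at ZT0 came from cohort 2. No promoter that would restrict the virus to a cell type is given. The tissue was cut out under GFP fluorescence and held transduced and untransduced cells of all types, so fewer cells of a type and less RNA per cell cannot be told apart.

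Histone H3.3 is the H3 variant that nerve cells put into chromatin outside of DNA replication. Its glutamine 5 lies beside lysine 4, whose methylation marks active promoters, and transglutaminase 2 can join serotonin, dopamine or histamine to that glutamine. Alanine at this position cannot carry a monoamine. The TMN holds the histamine-making neurons that promote wakefulness, and it lies close to hypothalamic neurons that make melanin-concentrating hormone (MCH) or orexin, to the mammillary bodies and to myelinated fibre tracts.

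Gene counts totalled 875500 to 1844695 per library, with a median of 1453189, and gene rows held 3.71% to 4.12% of the reads that were counted in a gene, in no feature or as ambiguous. The kit sequences against the transcript, whereas the count option took reads on the same strand as the gene, so a row can hold reads of a gene on the other strand. Each row is therefore named as deposited, with the gene whose exons overlap it on the other strand ("opposite") where the annotation has one. Values per library are CPM, counts as a share of the library total scaled by its TMM factor. Rows of histamine neurons were low: Hdc, for the enzyme that makes histamine, ran from 0 to 21.5 CPM and Hnmt, for the enzyme that methylates it, from 0 to 2.69 CPM. The vesicular monoamine transporter row Slc18a2 (opposite Gm29261) had 35.1 to 121 CPM. No pair of ZT0 libraries of a group agreed within sampling noise, so each was counted as 1 animal.

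In the comparison of all 15 libraries by virus, no row passed the test of Q5A against the control viruses. Of 9315 rows tested, 0 (0%) passed an adjusted p under 0.01 in edgeR's quasi-likelihood test, and 0 passed 0.05. At an unadjusted p under 0.05 there were 473 rows (5.08%), of which 231 (2.48%) had higher and 242 (2.6%) lower values in Q5A. DESeq2 also called 0 rows and had 446 at an unadjusted p under 0.05. The smallest adjusted p in edgeR was 0.888. Differences were small. The middle 90% of rows lay between -0.40 and 0.39 on the log2 scale, with a median of -0.0034, and the median standard error of a row was 0.22. Differences past 2-fold were found in 23 rows, 10 higher and 13 lower in Q5A. No row had all 6 Q5A libraries above, or all 6 below, the 9 control libraries (0 of 9315). The result was not the same within the larger cohort. Within cohort 1 the same comparison called 38 rows, as described further down. A fit of all 15 libraries with cohort as a covariate called 0, with 118 at an adjusted p under 0.05 and 1231 at an unadjusted p under 0.05.

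Against each control virus alone the result was of the same kind. Against GFP, 0 of 10126 rows (0%) passed an adjusted p under 0.01 and 553 had an unadjusted p under 0.05. Against H3.3, 0 of 10126 (0%) passed and 526 had an unadjusted p under 0.05. The control viruses set against each other gave 0 of 10126 (0%) and 528. Differences past 2-fold numbered 50 higher and 20 lower in Q5A against GFP, 31 higher and 43 lower against H3.3, and 52 higher and 31 lower in H3.3 against GFP. The median absolute log2 difference was 0.17 against GFP, 0.17 against H3.3 and 0.18 between the control viruses. DESeq2 gave 1, 0 and 0 calls for these comparisons, with 500, 489 and 465 rows at an unadjusted p under 0.05. In cohort 1 libraries alone the calls were 85 against GFP (45 higher, 40 lower in Q5A), 26 against H3.3 (all lower in Q5A) and 8 between the control viruses (4 higher, 4 lower in H3.3). These comparisons share libraries, and their values are given side by side.

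**Figure D1:**
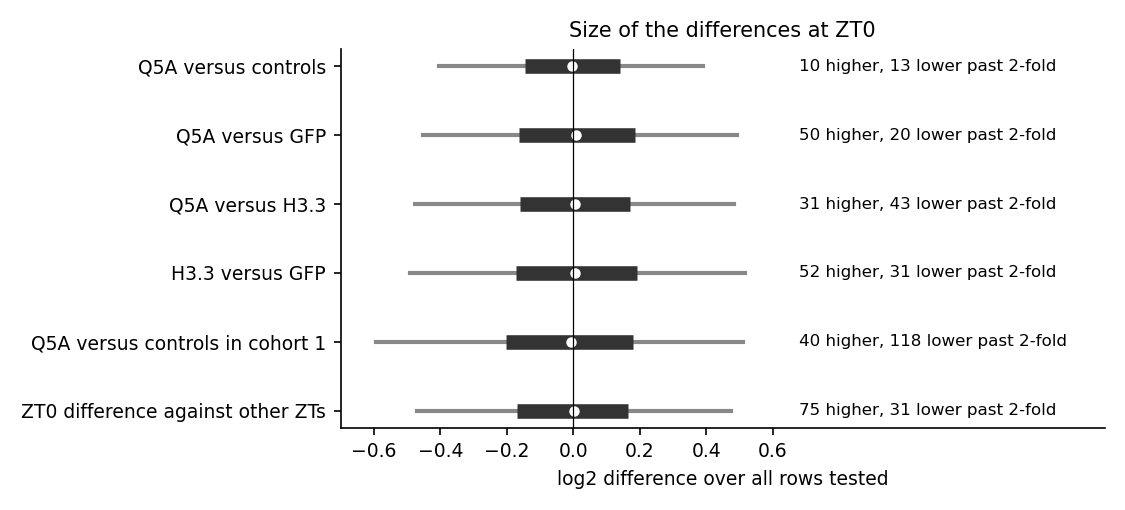
Distribution of log2 differences over all rows tested at ZT0, 1 line per comparison. The thin line spans the 5th to 95th percentile, the thick line the 25th to 75th, the white point is the median, and the text counts rows past 2-fold. Q5A against pooled controls has 10 rows higher and 13 lower past 2-fold, and cohort 1 alone has 40 and 118.

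Bc1, a short brain RNA made by RNA polymerase III that is found in dendrites and holds back translation, had the smallest p of the pooled comparison. It lies at chr7:144914470-144914637 on the plus strand of GRCm38 (GENCODE vM21), overlaps no exon on the other strand, and is shown in full because its row led both the pooled comparison and the rows that rose in cohort 1. The capitals mark its run of 23 adenosines, which lies inside the transcript.
Bc1: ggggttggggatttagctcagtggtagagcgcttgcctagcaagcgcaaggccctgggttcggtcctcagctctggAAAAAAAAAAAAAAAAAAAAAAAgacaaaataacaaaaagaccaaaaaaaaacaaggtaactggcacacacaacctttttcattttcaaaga
GFP libraries had 142, 152, 143 and 121 CPM in the Bc1 row. H3.3 libraries had 286, 369, 322 and 242 CPM in cohort 1 and 126 CPM in cohort 2. Q5A libraries had 400.1, 492, 561 and 1009.6 CPM in cohort 1, and 137 and 369.7 CPM in cohort 2. Within cohort 1 the 3 viruses did not overlap, in the order GFP, H3.3, Q5A, and the 3 cohort 2 libraries, of either virus, lay below every Q5A library of cohort 1. The log2 difference was 1.23 ± 0.31 (SE) from pooled controls (adjusted p = 0.888), 1.82 ± 0.37 from GFP (adjusted p = 0.346) and 0.88 ± 0.33 from H3.3 (adjusted p = 0.891). H3.3 differed from GFP by 0.94 ± 0.37 (adjusted p = 0.885).

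The other rows of smallest p with higher values in Q5A held few well-known genes. Nudt9 (opposite Gm43545), an ADP-ribose pyrophosphatase, had 30.6 to 56.8 CPM in the controls and 38.9 to 97.7 CPM in Q5A, a log2 difference of 0.60 ± 0.18. Ipo5, a nuclear import receptor, differed by 0.72 ± 0.25, and Gm26780 (opposite Abr) by 0.75 ± 0.25. Kcnd3os (opposite Kcnd3, a potassium channel of the A-type current) differed by 0.66 ± 0.21, and in cohort 1 by 0.27 ± 0.19. It had 192 reads in Q5A cohort 2 replicate 2 and 19 to 73 in the other libraries. The other 5 rows carry clone names, which have no position in the annotation used here. Of these, RP23-37I24.1 had 19.7 to 36.1 CPM in the controls, 32.3 to 48.9 CPM in 5 Q5A libraries and 146 CPM in Q5A cohort 2 replicate 2. RP23-292H20.1 had 4.14 to 162 CPM in the controls, 15.6 to 140.3 CPM in the same 5 Q5A libraries and 889.7 CPM in Q5A cohort 2 replicate 2. That library was the highest in both rows, and the log2 differences were 1.08 ± 0.28 and 2.24 ± 0.68 with all libraries but 0.48 ± 0.19 and 0.59 ± 0.55 in cohort 1. RP23-92G13.7, RP24-176F12.13 and RP23-17C12.7 differed by 0.68 ± 0.23, 0.56 ± 0.17 and 0.70 ± 0.27. None of these 10 rows passed (adjusted p = 0.888 for each).

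Among the 10 rows of smallest p with lower values in Q5A, Pet100 (chr8:3621548-3625848, plus strand, opposite the Purkinje cell gene Pcp2) had 4.16, 11.27, 18.1 and 13.7 CPM in GFP, 11.29, 6.82, 44.1, 6.21 and 11.8 CPM in H3.3 and 2.22, 3.37, 1.32, 7.92, 0 and 4.81 CPM in Q5A. Its log2 difference was -1.69 ± 0.53, at a median of 9 reads per library. Cdan1 (chr2:120716154-120850128, minus strand, opposite the kinesin gene Stard9) had 64.7 to 114 CPM in the controls, 40.7, 40.4, 54.2 and 35.6 CPM in Q5A cohort 1 and 80.9 and 78.6 CPM in Q5A cohort 2, a difference of -0.69 ± 0.19. The 4 Q5A libraries of cohort 1 lay below every control library, and the 2 of cohort 2 lay among the controls. Ccp110, a centriole protein, had 7.26 to 8.16 CPM in 5 Q5A libraries and 12.8 CPM in Q5A cohort 2 replicate 2, against 9.03 to 22.7 CPM in the controls (-0.80 ± 0.24). Vegfa, the vascular growth factor, had 35.7 to 53.3 CPM in Q5A and 50.2 to 77.4 CPM in the controls (-0.49 ± 0.14). Stab1 (opposite Nt5dc2) differed by -0.74 ± 0.22, Idh3b (opposite Nop56) by -0.52 ± 0.16 and Brd9, a bromodomain protein of chromatin remodelling complexes, by -0.71 ± 0.23. Tprn, R3hcc1 and the clone row RP24-329C11.12 differed by -0.95 ± 0.36, -0.69 ± 0.24 and -1.1 ± 0.36. The adjusted p was 0.888 for each of the 10.

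Against GFP alone the smallest p belonged to Rn18s-rs5, a row of ribosomal RNA sequence with no position in the annotation used here. It had 5989.6, 4222, 8377 and 7131 CPM in GFP, 16587, 12444, 10776, 13968 and 10721 CPM in H3.3 and 23693, 11580.0, 16474, 11646, 12634 and 25368 CPM in Q5A. All GFP libraries lay below all libraries of both histone viruses, and H3.3 and Q5A overlapped. The log2 difference was 1.4 ± 0.24 from GFP (adjusted p = 0.0885) and 0.39 ± 0.22 from H3.3 (adjusted p = 0.928), and H3.3 differed from GFP by 1.0 ± 0.24 (adjusted p = 0.578). It was the 1 row that DESeq2 called against GFP. Clic3, of the chloride channel family, had 28.1 to 49.3 CPM in GFP, 15.1 to 23.5 CPM in H3.3 and 11.8 to 25.2 CPM in Q5A, with differences of -1.0 ± 0.23 from GFP and 0.04 ± 0.23 from H3.3. Ttc34 (opposite Gm13112), Leng9 (opposite Leng8) and Fndc8 (opposite Nle1) differed from GFP by -0.89, -0.86 and -0.75, and from H3.3 by -0.28, -0.03 and -0.20. Another clone-named row differed by -1.15 from GFP and -0.53 from H3.3. In the other direction RP23-273G23.2 differed from GFP by 1.64 and from H3.3 by 0.40, Pdss1 (opposite Abi1) by 1.37 and 0.47, and RP23-401G21.3 by 1.05 and 0.26. In each of these rows the fitted H3.3 level lay on the Q5A side of GFP, and none passed (adjusted p = 0.481 to 0.741 for the rows other than Rn18s-rs5 and Bc1).

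Against H3.3 alone other rows led. RP23-442K11.3 had 43.7, 4.54, 56.0, 41.4 and 12.4 CPM in H3.3 and 0 to 9.70 CPM over GFP and Q5A, with differences of -2.41 ± 0.55 from H3.3 and -0.29 ± 0.70 from GFP. AC157555.1 had 153 to 572 CPM in H3.3, 96.2 to 217 CPM in GFP and 97.4 to 215 CPM in Q5A (-1.23 ± 0.28 from H3.3 and 0.10 ± 0.30 from GFP). Igkc, the kappa light chain of antibodies, had 267 CPM in H3.3 cohort 1 replicate 2 and 0 to 9.28 CPM in the other 14 libraries, which gave -4.69 ± 1.53 from H3.3. Ccp110 differed from H3.3 by -0.97 ± 0.27 and from GFP by -0.57 ± 0.29, and Fcho2, an endocytosis protein, by -1.0 and -0.02. With higher values in Q5A, Prickle4 (opposite Tomm6os) differed from H3.3 by 1.04 and from GFP by 0.21, Fndc9 by 1.03 and 0.29, Thsd7a by 1.01 and 0.27, RP23-89M14.3 by 0.75 and 0.32, and RP23-37I24.1 by 1.28 and 0.88. The adjusted p was 0.612 for RP23-442K11.3 and 0.739 for the others.

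Within cohort 1, the only cohort at ZT0 with all 3 viruses, the comparison gave calls. Of 9701 rows, 38 (0.392%) passed an adjusted p under 0.01, 5 higher and 33 lower in Q5A, and 1334 (13.8%) had an unadjusted p under 0.05, 620 (6.39%) higher and 714 (7.36%) lower. Past 2-fold were 40 rows on the higher and 118 on the lower side. The 4 Q5A libraries lay wholly above the 8 controls in 107 rows and wholly below them in 124, together 2.38% of rows. The calls depended on single animals. Without Q5A cohort 1 replicate 2 there were 0 calls, with 980 rows at an unadjusted p under 0.05, and without Q5A cohort 1 replicate 3 there were 0 calls, with 1103. Leaving out H3.3 cohort 1 replicate 4 gave 12 calls, H3.3 cohort 1 replicate 3 gave 20, GFP cohort 1 replicate 2 gave 25 and GFP cohort 1 replicate 1 gave 70. DESeq2 called 133 rows in cohort 1, among them all 38.

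Of the 18 rows with gene names that fell in cohort 1, 6 belong to the list of genes of oligodendrocytes, the glia that make myelin. Of the 14 genes in the oligodendrocyte list, 13 had a tested row and 6 were called, all lower in Q5A (among them Mag, Mbp, Mobp, Mal and Cldn11), with a median of -1.14 over the 13 against -0.01 over all rows. Mag, the myelin-associated glycoprotein of the innermost myelin membrane (chr7:30899176-30914873, minus strand), had 49.3, 64.3, 62.3 and 65.5 CPM in GFP, 55.7, 88.6, 71.3 and 77.6 CPM in H3.3 and 14.8, 17.5, 19.2 and 37.0 CPM in Q5A. Its log2 difference was -1.52 ± 0.23 (edgeR adjusted p = 0.00252). Mbp, the protein that compacts myelin from the cytoplasmic side (chr18:82475146-82585637, plus strand), had 522, 990.5, 1124 and 1173 CPM in GFP, 906, 1109, 994 and 1295 CPM in H3.3 and 328, 293, 302 and 608 CPM in Q5A (-1.40 ± 0.21). Mag did not overlap between Q5A and the controls, and Mbp overlapped through 1 GFP and 1 Q5A library. Mobp, another myelin protein (chr9:120149707-120181484, plus strand), had 204 to 441 CPM in the controls and 121, 106, 134 and 245 CPM in Q5A (-1.14 ± 0.21, adjusted p = 0.00572). Mal, a sorting protein of myelin membranes, and Cldn11, the claudin of its tight junctions, fell by 1.26 ± 0.25 and 1.36 ± 0.26 on the log2 scale.

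Rows that lie opposite other genes fell as well. Bcas1os1 and Bcas1os2 both overlap Bcas1, a marker of oligodendrocytes that begin to myelinate. The Bcas1os1 row had 957 to 2444 CPM in the controls and 360.3 to 806 CPM in Q5A (-1.41 ± 0.23), Bcas1os2 differed by -1.41 ± 0.23, and the Bcas1 row itself by -1.25 ± 0.21 (adjusted p = 0.00416). Also called lower were Kcnab3os (opposite the potassium channel subunit Kcnab3, -1.97 ± 0.31), Galnt6os (opposite Galnt6, -1.25 ± 0.20), Xrcc6 (opposite Desi1, -1.0 ± 0.15), Cdan1 (-1.0 ± 0.18), Pigh (opposite Plekhh1, -1.23) and Aph1a (opposite the carbonic anhydrase gene Car14, -1.41). Qdpr, which recycles the cofactor of monoamine synthesis, fell by 1.04 ± 0.21 and Scd3, a fatty acid desaturase, by 1.25 ± 0.29. A further 15 lower rows carry clone names, among them RP24-97K3.3 with 836 to 1714 CPM in Q5A and 1962 to 4300.2 CPM in the controls, and RP23-280F6.4 with 8.75 to 27.7 and 37.6 to 98.1 CPM. List members that did not pass included the lineage transcription factors Olig2 (-0.89), Olig1 (-0.69) and Sox10 (-0.88), Ermn (-1.22), Cnp (-0.17 ± 0.12) and Mog (0.34 ± 0.22). Mog was the 1 tested member with a positive difference. These rows too can hold reads of a gene on the other strand. The 2 tested rows opposite members of this list differed by -0.37 and -1.17 in cohort 1. Both had an unadjusted p under 0.05, where 7.36% of all rows were lower at that threshold, and neither passed.

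The 250 bases before the annotated start of 4 of the called myelin genes are shown, since these rows moved together. They are from RefSeq on GRCm38.p6, each 5′ to 3′ on the strand of its gene, and capitals mark matches on either strand to ACAAAG, a form of the core that SOX transcription factors bind.
Mag, chr7:30914864-30915113, minus strand: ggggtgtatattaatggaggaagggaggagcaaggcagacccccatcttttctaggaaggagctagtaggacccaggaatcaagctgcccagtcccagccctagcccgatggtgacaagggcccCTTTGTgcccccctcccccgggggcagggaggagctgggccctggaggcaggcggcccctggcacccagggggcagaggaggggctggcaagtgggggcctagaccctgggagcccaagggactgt
Mobp, chr9:120149492-120149741, plus strand: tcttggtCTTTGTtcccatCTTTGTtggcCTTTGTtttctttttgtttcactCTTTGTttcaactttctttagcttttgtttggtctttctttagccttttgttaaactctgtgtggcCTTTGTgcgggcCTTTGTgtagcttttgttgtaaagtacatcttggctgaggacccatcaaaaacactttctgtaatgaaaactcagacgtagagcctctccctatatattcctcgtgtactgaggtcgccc
Mal, chr2:127656696-127656945, minus strand: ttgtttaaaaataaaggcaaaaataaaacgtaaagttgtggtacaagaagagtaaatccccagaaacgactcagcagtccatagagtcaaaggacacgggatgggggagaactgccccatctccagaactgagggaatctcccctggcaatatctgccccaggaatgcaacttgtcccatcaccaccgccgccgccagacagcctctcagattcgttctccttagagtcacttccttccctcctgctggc
Cldn11, chr3:31149670-31149919, plus strand: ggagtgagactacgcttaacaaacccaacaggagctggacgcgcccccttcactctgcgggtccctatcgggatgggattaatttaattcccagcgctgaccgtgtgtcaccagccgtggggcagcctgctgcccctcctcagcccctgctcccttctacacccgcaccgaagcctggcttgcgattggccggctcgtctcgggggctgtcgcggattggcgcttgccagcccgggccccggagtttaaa
The search covered both strands and 3 motifs, ACAAAG, the SOX form ACAATG, and CACGTG, the E-box that CLOCK and BMAL1 bind. ACAAAG had 6 matches in the Mobp window and 1 in that of Mag, all on the strand opposite the gene, and none in those of Mal and Cldn11. Over 27025 genes with such a window, 16.5% held ACAAAG, 11% ACAATG and 6.05% CACGTG, and the last 2 motifs were in none of the 4 windows.

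The 5 rows that rose in cohort 1 were led by Bc1 (1.47 ± 0.26, adjusted p = 0.00443). Dnal1 (opposite Pnma1, a neuronal antigen) had 25.9 to 73.3 CPM in the controls and 73.3, 155, 129 and 104 CPM in Q5A (1.14 ± 0.21). Rnd2 (opposite Vat1), a small GTPase of migrating neurons, had 396 to 717 CPM in the controls and 654, 1048, 909 and 835 CPM in Q5A (0.77 ± 0.15). Necab1 (opposite Gm11837), a neuronal calcium-binding protein, had 11.04 to 25.9 CPM in the controls and 35.6, 51.9, 40.9 and 29.7 CPM in Q5A (1.19 ± 0.24). Thoc1 (opposite the deubiquitinase gene Usp14) differed by 0.65 ± 0.13. Rnd2 overlapped between the groups through Q5A replicate 1, and the other 4 rows did not overlap, although for Dnal1 the highest control and the lowest Q5A library both round to the same value.

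**Figure D2:**
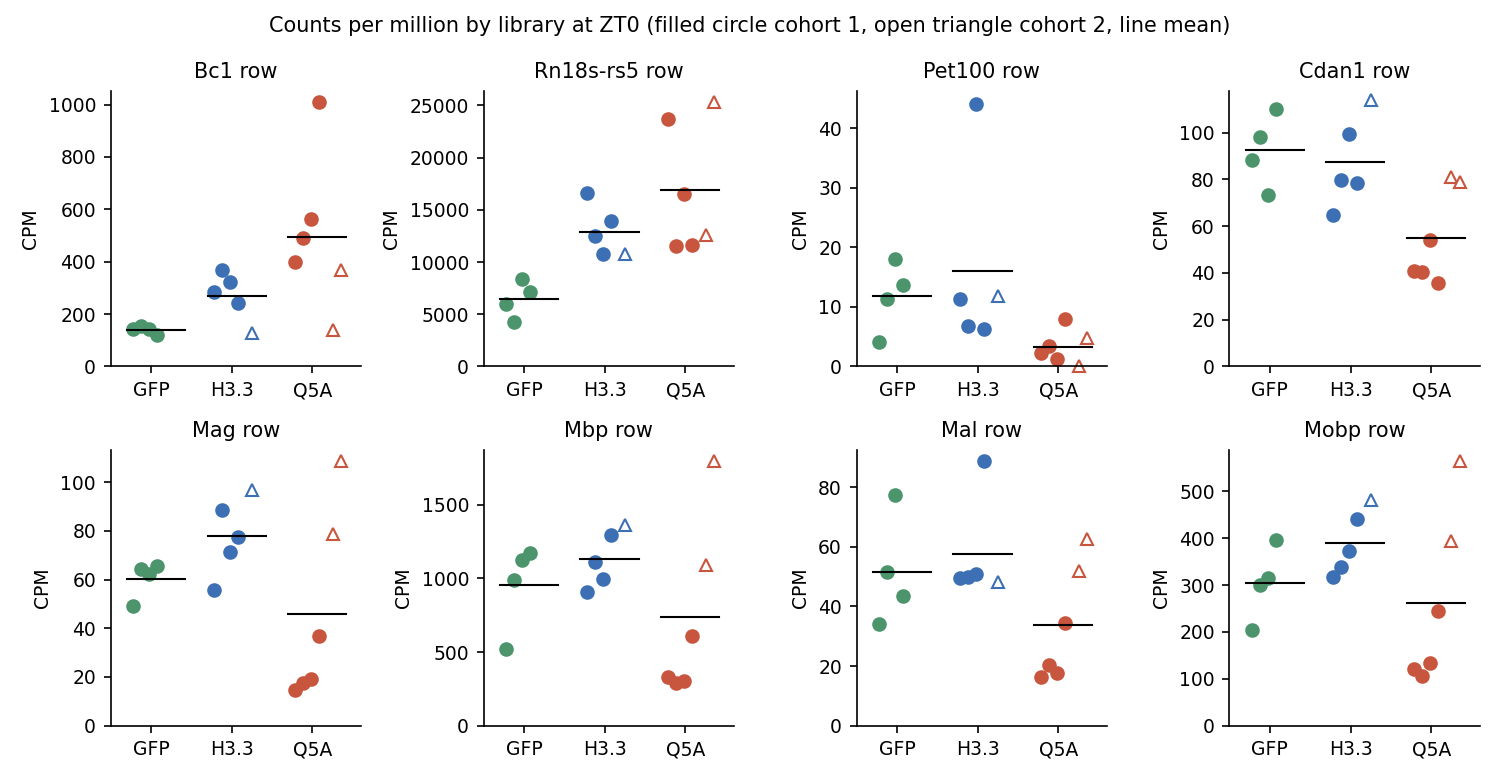
CPM of 8 rows in each ZT0 library by virus. Filled circles are cohort 1, open triangles cohort 2 and lines the mean of each virus. For Mag the 4 Q5A libraries of cohort 1 lie at 14.8 to 37.0 CPM, below every control, and the 2 of cohort 2 at 78.7 and 109 CPM.

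The cohort 2 libraries did not have the low myelin values. Their Mag row had 96.8 CPM in H3.3 and 78.7 and 109 CPM in Q5A, and their Mbp row 1366 CPM in H3.3 and 1090.3 and 1799 CPM in Q5A. Over the 33 rows called lower in cohort 1, the median log2 difference between the 2 Q5A and the 1 H3.3 library of cohort 2 was -0.14, with 23 of 33 below 0, against -1.27 in cohort 1. Choosing rows for passing in cohort 1 can by itself widen this gap, also for the called rows named below. Over all 13254 rows the cohort 2 median was -0.01, with 50.8% below 0. Tested as Q5A against H3.3 in cohort 1 minus the same in cohort 2, 0 of 12618 rows (0%) passed an adjusted p under 0.01, with 811 at an unadjusted p under 0.05. This contrast rests on a single H3.3 library of cohort 2, which is assumed to vary like the others. Mag differed between the cohorts by -1.62 ± 0.46 (edgeR adjusted p = 0.509), Mbp by -1.59 ± 0.47 (adjusted p = 0.561) and Bc1 by -0.02 ± 0.50. GFP cannot be compared between cohorts at ZT0.

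At the other time points the same 33 rows had differences in either direction. Q5A minus controls in cohort 1 gave medians of -0.68 for ZT4 (32 of 33 rows below 0) and -0.48 for ZT8 (31 of 33). It gave 0.74 for ZT12 and 0.81 for ZT16, with 0 and 0 of the 33 rows below 0, and 0.08 for ZT20. In cohort 2 the medians of these time points, in the same order, were 0.01, 0.48, -0.06, -0.68 and 0.41. Cohort 3, which has Q5A and H3.3 libraries at ZT4, ZT12 and ZT16 and none at ZT0, gave medians of -0.13, -1.07 (32 of 33 rows below 0) and 0.20, from 1 Q5A library each. Cohorts 1 and 3 had medians of opposite sign at ZT12. The rows called lower at ZT0 in cohort 1 had their highest median at ZT16 in the same cohort. For Bc1 the cohort 1 difference from pooled controls was 1.49 at ZT0. It was above 0 at the 5 other time points too, at 2.15, 2.32, 0.70, 0.72 and 0.37. In CPM scaled over all libraries, the cohort 1 mean of Q5A exceeded those of GFP and H3.3 at ZT4, ZT8, ZT12 and ZT16. At ZT20 the Bc1 row had 277 to 479 CPM in Q5A and 51.6 to 352 CPM in GFP. H3.3 had 510 to 796 CPM there, above every Q5A library. In cohort 2 the Bc1 difference ran from -1.32 (ZT20) to 0.84 (ZT0), and in cohort 3 from -0.29 (ZT12) to -0.12 (ZT4). These are differences of group means with no test, from 1 to 5 Q5A and 1 to 9 control libraries per set.

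**Figure D3:**
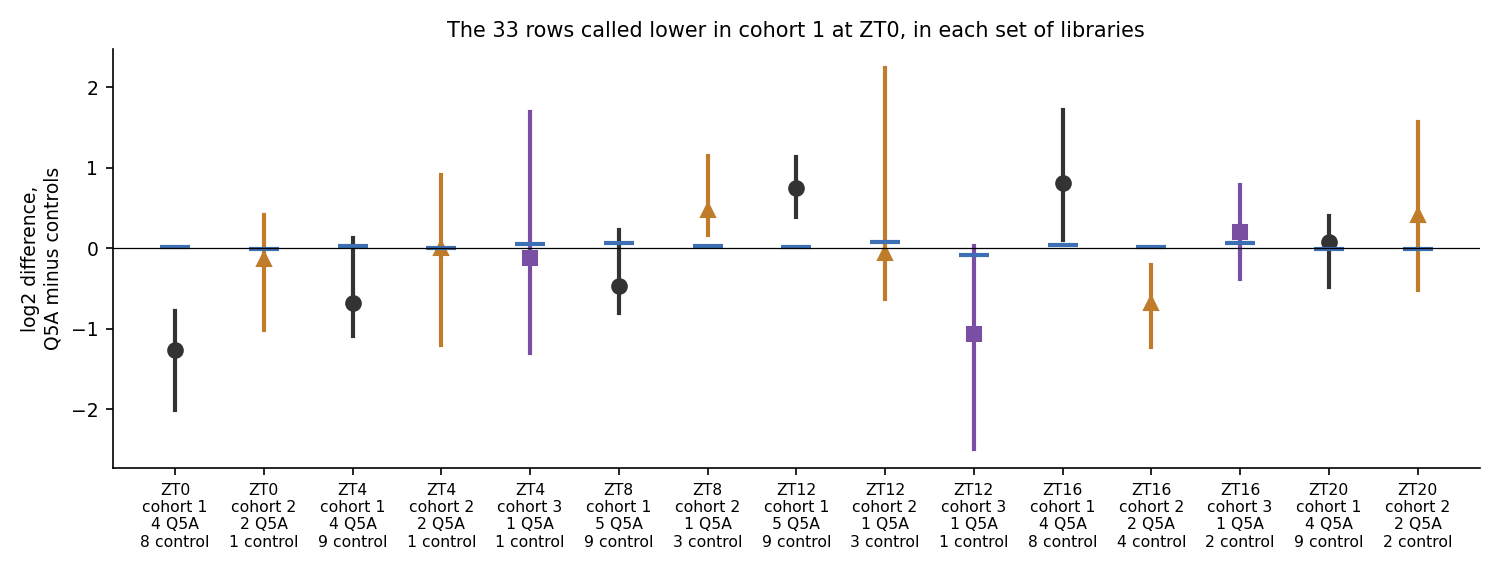
Log2 difference, Q5A minus controls, of the 33 rows called lower in cohort 1 at ZT0, in each ZT and cohort with Q5A and control libraries. Points (circle cohort 1, triangle cohort 2, square cohort 3) are medians, vertical lines run from the lowest to the highest row, and blue bars are medians of all rows. The median is -1.27 where the rows were called, -0.14 in cohort 2 at ZT0, 0.81 in cohort 1 at ZT16 and -1.07 in cohort 3 at ZT12.

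The contrast of the ZT0 difference with the mean of the differences at the 5 other time points, over all libraries, tested whether a difference was particular to ZT0. In it ZT4 Q5A cohort 2 replicates 2 and 3, whose counts are nearly identical (totals 1735779 and 1735785), were counted as 1 library. It called 0 of 13254 rows (0%), with 345 at an unadjusted p under 0.05, and DESeq2 called 0 with 349. In cohort 1 libraries alone it called 0 of 12640 rows too, but 1202 (9.51%) had an unadjusted p under 0.05 and the smallest adjusted p was 0.0596, against 1.00 over all libraries. Over all libraries, the rows of smallest p on the lower side were Pet100 (-2.20 ± 0.78), Brd9 (-0.85 ± 0.30), Sfswap (-0.71), Mapkapk2 (-0.90) and RP23-460I18.1 (-1.01). On the higher side they were Gm17281 (opposite Pacsin3, 1.28), Mpv17l (0.84), Nipal2 (0.82), Rnf40 (0.75) and Il17b (1.26). Rnf40 is a subunit of the ubiquitin ligase of histone H2B. Pet100 and Brd9 were also among the leading rows of the pooled comparison, which shares the ZT0 libraries. None passed (adjusted p = 1.00 for each).

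Rows of neighbouring cell groups differed widely between libraries. The Parpbp row, opposite Pmch, the gene of the MCH precursor, was chosen after its values were seen and had 12534, 28721, 42126 and 23824 CPM in Q5A cohort 1 and 3611 to 32169 CPM in the cohort 1 controls. In cohort 2 it had 2504 and 41.2 CPM in Q5A and 224 CPM in H3.3. All 3 cohort 2 libraries lay below every cohort 1 library. The Nefm row, opposite the neurofilament gene Nefl, had 4784, 2893, 3365 and 3551 CPM in Q5A cohort 1 and 4592 to 6404 CPM in the cohort 1 controls, apart from 17457 CPM in GFP replicate 4. In cohort 2 it had 8618 and 12038 CPM in Q5A and 21590.0 CPM in H3.3. The 14 oligodendrocyte rows summed to 1216 to 1883 CPM in Q5A cohort 1 and 1733 to 3151 CPM in the cohort 1 controls. In cohort 2 their sum was 2716 and 3834 CPM in Q5A and 3278 CPM in H3.3, and none of the rows was at 0 in all libraries. The part of MCH and neurofilament rows in the cohort 1 calls was not tested.

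Other cell type lists had no call in either fit. The 12 astrocyte rows summed to 456 to 739 CPM in the controls and 472 to 703 CPM in Q5A, with a median cohort 1 difference of -0.21 over 12 tested rows. Pooled differences were -0.26 for Gja1, -0.40 for S100b and 0.41 for the glutamate transporter Slc1a3. Microglia rows summed to 282 to 428 CPM in the controls and 229.6 to 392 CPM in Q5A, with Cx3cr1 at -0.36, C1qc at -0.20 and C1qb at -0.14. Vascular rows summed to 39.1 to 74.3 and 29.1 to 57.8 CPM (Flt1 -0.30, Vtn -0.29, Rgs5 0.09), and mammillary rows to 30.0 to 80.5 and 51.1 to 75.3 CPM (Lhx1 -0.35, Lhx5 -0.15, Foxb1 0.09). Striatal rows summed to 60.8 to 101 and 70.5 to 111 CPM (Rasd2 0.30, Penk 0.10, Ppp1r1b -0.07). Pituitary rows summed to 158 to 251 and 217 to 275 CPM (Chgb 0.25, Eya3 0.42, Tshb -0.23), with 2 of 15 at 0 throughout. Ependymal and choroid plexus rows summed to 279 to 485 and 326 to 387 CPM, and the 1 tested, Rarres2, differed by -0.04. The 1 tested row opposite a member of this list differed by 0.65, and by 0.90 in cohort 1. It had an unadjusted p under 0.05 in both fits, where 2.48% and 6.39% of all rows were positive at that threshold, and passed in neither. The 12 neuron rows had a median of -0.04, with Gap43, a growth cone protein, at 0.46 ± 0.16, Stmn2 at 0.32 and Nefm at -0.52.

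**Figure D4:**
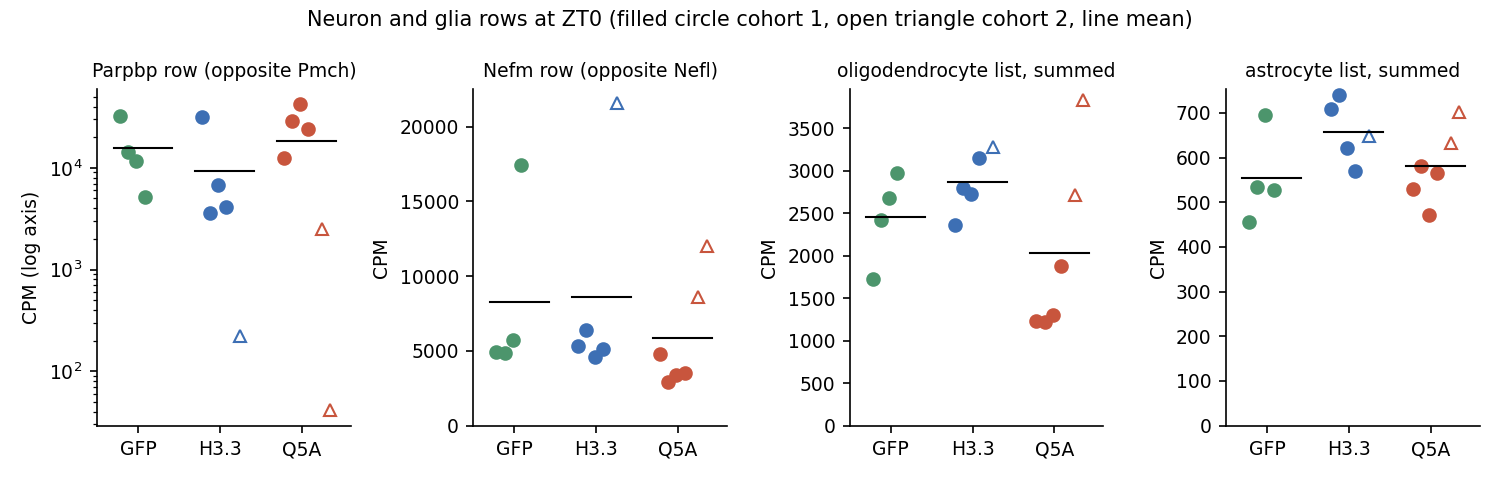
CPM per ZT0 library of the Parpbp row (log axis), the Nefm row and the summed oligodendrocyte and astrocyte lists, by virus. Filled circles are cohort 1, open triangles cohort 2 and lines the mean of each virus. Parpbp lies at 12534 to 42126 CPM in Q5A cohort 1, where the summed oligodendrocyte rows are at 1216 to 1883 CPM, and at 2504 and 41.2 CPM in Q5A cohort 2.

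The rows of the histone genes, which can miss reads of their own transcripts, gave no clear sign of the virus. The H3f3a row (opposite Gm17275 and H3f3aos) had 1.14 to 5.66 CPM and was not tested in the pooled fit, and H3f3b had 7.42 to 20.9 CPM with a difference of 0.10 ± 0.25. The Gm17275 row, chosen after its values were seen because it shares exons with H3f3a on the other strand, had 106, 106, 84.4 and 103 CPM in GFP. It had 114, 239, 186 and 128 CPM in H3.3 cohort 1 and 273, 209, 242 and 245 CPM in Q5A cohort 1. In cohort 2 it had 117 CPM in H3.3 and 120.2 and 81.9 CPM in Q5A. In cohort 1, GFP lay below both histone viruses, and in cohort 2 Q5A lay at or near the GFP level. Its log2 difference was 0.57 ± 0.24 from pooled controls (adjusted p = 0.888) and 0.86 ± 0.20 in cohort 1 (adjusted p = 0.024). Whether vector transcripts add reads to this row was not tested.

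Genes that write, read or erase methylation of lysine 4, with H3.3 chaperones, gave no call. Of the 26 in the list, 19 had a tested row, with 11 positive and 8 negative differences and a median of 0.02. Men1, the menin subunit of MLL complexes, differed by 0.55 ± 0.25, Atrx, which places H3.3 in heterochromatin, by -0.47 ± 0.25 and Ash2l, a core subunit of the methyltransferases, by -0.39 ± 0.25. The rows of Wdr5, which binds the H3 tail, and Tgm2, the transglutaminase, reached at most 5.09 and 6.82 CPM and were not tested in the pooled fit. Of the 5 tested rows opposite members of this list, 3 had an unadjusted p under 0.05 in cohort 1, all positive, where 6.39% of all rows were positive at that threshold. The same 5 rows had 1 at an unadjusted p under 0.05 in the pooled comparison, 4 against GFP and 3 in H3.3 against GFP, all positive, and 0 against H3.3. Over all rows 2.48%, 2.82%, 2.54% and 2.56% were positive at that threshold in these comparisons. Named after their values were seen, the 3 rows in cohort 1 were Gm17275, Mcm9 (opposite the histone chaperone gene Asf1a, 0.43 ± 0.16) and Srpk2 (opposite the MLL family gene Kmt2e, 0.61 ± 0.17). Srpk2 had 79.4 to 134 CPM in GFP, 133 to 193 CPM in H3.3 cohort 1 and 191 to 219 CPM in Q5A cohort 1, but 108 and 90.9 CPM in Q5A cohort 2.

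Clock genes gave no call. Of 20 in the list, 11 had a tested row, 5 positive and 6 negative, with a median of -0.01 and 0 at an unadjusted p under 0.05. The Nr1d1 row, named for the repressor REV-ERB alpha, lies opposite Thra and can hold Thra reads. It had 1619 to 2160.2 CPM in the controls and 1531 to 1862 CPM in Q5A, at a median of 2381 reads per library. Its difference of -0.11 ± 0.10 had less than 50% of the standard error of a typical row. Whether the reads of this row come from Nr1d1 or from Thra was not tested, so it is no clear measure of REV-ERB alpha. Dbp (opposite Sphk2), an output gene of the clock, differed by 0.19 ± 0.20, Clock by 0.32 ± 0.18, Cry2 by 0.36 ± 0.21 and Rora by 0.58 ± 0.38. Per1 differed by 0.45 ± 0.33 from pooled controls, 0.95 ± 0.42 from GFP (adjusted p = 0.904) and 0.13 ± 0.35 from H3.3, at 2.07 to 10.5 CPM. Per2 had 0 to 7.03 CPM and Arntl 0.742 to 9.09 CPM, and neither was tested in the pooled fit. Histamine genes had 4 tested rows of 12 and 0 calls. Slc18a2 differed by 0.25 ± 0.21 from pooled controls, by 0.69 ± 0.22 from GFP (adjusted p = 0.874) and by -0.03 ± 0.20 from H3.3. Slc29a4 and the histamine receptor gene Hrh3 differed by -0.26 and 0.07. The Hdc row had 32, 14 and 11 reads in Q5A cohort 1 replicates 2, 3 and 4, with 21.5 CPM in replicate 2. It had 0 to 10 reads in the other libraries and was not tested in the pooled fit.

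Neuronal lists held no call in the pooled comparison or in cohort 1. Synaptic genes had 31 tested rows, 18 of them positive, and a median of 0.02, with values for the receptor subunit genes Gria2 (0.45) and Gabrb1 (0.39). Neurotrophin signalling genes had 18 tested rows and a median of 0.07, with the BDNF receptor gene Ntrk2 at 0.37 ± 0.16, Gab1 at -0.43 and Akt1 at -0.19. Potassium channel genes had 21 tested rows and a median of -0.09, with Kcnn3 at 0.87 ± 0.37, Kcnd3 at 0.62 and Kcnc1 at -0.28. The Kcnd3 row had 78 reads in Q5A cohort 2 replicate 2 and 5 to 28 in the other libraries. Neuropeptide and transmitter genes had 11 tested rows and a median of -0.16, with Cartpt, the CART peptide gene, at 1.24 ± 0.63, Gad1, which makes GABA, at -0.43 ± 0.20 and Slc32a1, which loads it into vesicles, at -0.28. Cartpt had 17.8 to 31.6 CPM in Q5A replicates 2, 3 and 4 of cohort 1 and 0 to 9.79 CPM in the other 12 libraries.

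Stress and housekeeping lists held no call in the pooled comparison either. All 10 tested heat shock rows had positive differences, between 0.05 and 0.35 with a median of 0.18, and 0 had an unadjusted p under 0.05. The smallest p were those of Hsph1 (0.34), Dnajb1 (0.33) and Hspa8 (0.22). All 5 tested interferon rows were negative, led by H2-K1 (-0.92 ± 0.57), Isg15 (-0.39) and Irf7 (-0.24). H2-K1 had 84.1 CPM in H3.3 cohort 1 replicate 2, the library with the high Igkc row, and 2.22 to 21.4 CPM in the others. Immediate early genes had 6 tested rows with a median of -0.18 (Jun -0.32, Arc -0.44, Egr1 -0.19). Glucocorticoid-responsive genes had 5 with a median of 0.03 (Mt2 0.44, Klf9 -0.15). Respiratory chain genes had 25 with a median of -0.05 (Cox8a -0.50, Ndufv1 -0.40), and ribosomal protein genes 27 with a median of 0.0044 (Rps28 -0.34, Rplp0 -0.33). None of the 15 mitochondrially encoded genes had a count.

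**Figure D5:**
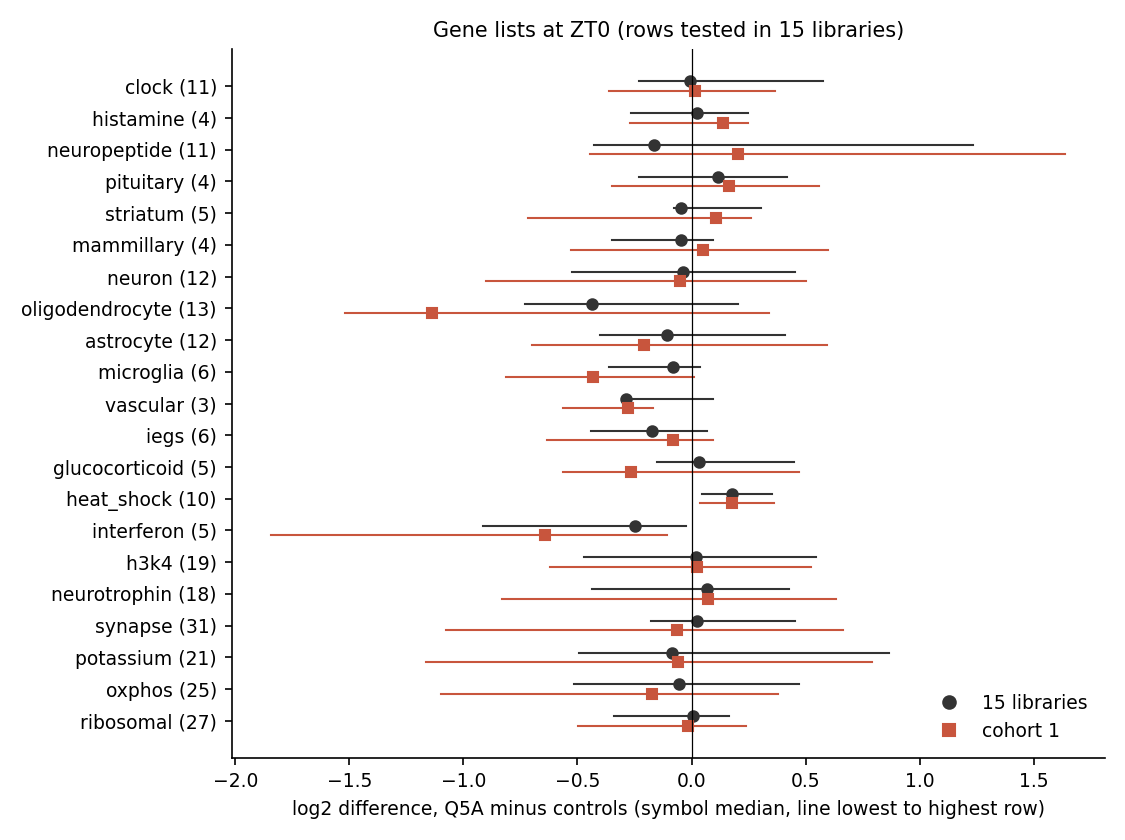
Median (symbol) and lowest to highest row (line) of the log2 difference, Q5A minus controls, for each list with at least 3 tested rows, in 15 libraries (black circles) and in cohort 1 (red squares). Numbers in brackets are rows tested in 15 libraries. The oligodendrocyte list has medians of -0.44 and -1.14, and the heat shock list has every row above 0 in both.

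By class of row, the pooled differences were alike in size. Protein-coding rows (6774 tested, 53.6% of counts) had a median absolute log2 difference of 0.14 and 4.80% at an unadjusted p under 0.05, and clone-named rows (2025 tested, 34.5% of counts) had 0.14 and 5.28%. Antisense rows (128) had 7.03% and other long noncoding rows (158) 9.49%. Rows whose exons overlap a gene on the other strand (3438) had 5.38%, and annotated rows without such overlap (3757) 4.63%. In cohort 1 the shares were 12.1% of protein-coding, 17.5% of clone-named, 26.9% of antisense and 21.5% of other long noncoding rows. Of the 38 rows called there, 18 were protein-coding, 15 clone-named, 4 antisense and 1 another long noncoding RNA, and 15 of the 23 with a position overlapped an exon on the other strand. These classes differ in depth, with median counts per library of 24.3 for protein-coding, 63.5 for clone-named and 103.7 for antisense rows in the pooled fit.

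Standard errors fell with depth, and most cohort 1 calls lay in deep rows. In rows with a mean of 6.6 to 14.9 reads per library (2334 rows) the median standard error was 0.31, and in rows with 82.3 or more (2329) it was 0.14. Of the 38 rows called in cohort 1, 32 were among the 2424 with a mean of 77.8 reads or more, and 0 among the 2445 with 13.9 or fewer.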

How the data were processed

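Counts of 15 ZT0 libraries (4 GFP, 5 H3.3, 6 Q5A), grouped by their labels, were analysed, and the other libraries of the series served for the contrast of ZT0 with other time points. The authors used the Illumina stranded mRNA ligation kit, aligned reads to GRCm38 with STAR 2.7.11b and deposited raw counts per gene name from HTSeq 2.0.5 in stranded mode. The sequencer of each library is not given in the sources used here. The 5 lines that name no gene were left out, as were 18 files that match no sample. The main test was edgeR 4.0.16 in R 4.3.3 (filterByExpr with a minimum count of 10 and total of 15, TMM, quasi-likelihood F test, prior count 2, Benjamini-Hochberg), at an adjusted p under 0.01. Alternatives were DESeq2 1.42.0, its size factors, no filter, cohort terms, a replicate block and left-out libraries. Overlaps were found with bedtools 2.31.1 in GENCODE vM21. Tested on simulated data of the pooled comparison (9315 rows, 200 changed), the procedure recovered 55% of log2 changes of 1 and 89% of log2 changes of 2, and for cohort 1 (9701 rows) 24.5% and 89%.

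Named rows were the 10 of smallest p in each direction (pooled, and among cohort 1 calls), the 5 in each direction against GFP, against H3.3 and against other time points, the 3 of smallest p of each list, and H3f3a, H3f3b, Hdc, Tgm2, Wdr5, Per1, Per2, Dbp, Nr1d1, Clock and Arntl. Some of these rows are not reported here. All other rows were named after their values were seen. The members and lists were chosen with earlier results of these data known.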

Additional observations from a re-analysis of the deposited data

Results flagged for a closer look

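In 18 of 117 groups of 4 to 6 libraries tested, the highest or lowest library stood apart by Dixon's criterion at the 95% level. Many of the rows were chosen for their values in these libraries, so this number cannot be set against a chance rate. H3.3 cohort 2 replicate 1 and Q5A cohort 2 replicates 1 and 2 are cohort 2 libraries within groups that are otherwise cohort 1.

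Q5A cohort 2 replicate 2 was high in RP23-37I24.1 (146 CPM, next 48.9), RP23-292H20.1 (889.7 CPM, next 140.3) and Ccp110 (12.8 CPM, next 8.16). Q5A cohort 2 replicate 1 was high in Igkc (2.23 CPM, next 0.741). H3.3 cohort 2 replicate 1 was high in RP23-292H20.1 (93.3 CPM), Nefm (21590.0 CPM) and the summed neuron list (23110.0 CPM), and low in Dnal1 (20.7 CPM).

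GFP replicate 4 was high in RP23-292H20.1 (162 CPM), Ccp110 (16.2 CPM), Nefm (17457 CPM) and the summed neuron list (18700.0 CPM), and GFP replicate 3 was low in Gm17275 (84.4 CPM). Among the H3.3 libraries of cohort 1, replicate 3 was high in Pet100 (44.1 CPM), replicate 4 in Mal (89.0 CPM), replicate 1 in Parpbp (31616 CPM), and replicate 2 in Igkc (267 CPM) and the summed microglia list (428 CPM).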

How the results depend on the processing

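Without a filter on low counts, the calls were 10 in the pooled comparison (27976 rows; Bc1, Pet100, RP23-37I24.1, RP23-292H20.1, Igkc, Ddc, Slc6a3, Ighg2b, Ighg2c and RP23-247I11.8), 52 against GFP, 80 against H3.3 and 297 in cohort 1. With DESeq2 they were 1 against GFP (Rn18s-rs5) and 133 in cohort 1, and at an adjusted p under 0.05 cohort 1 gave 194. In cohort 1 libraries alone there were 85 against GFP, 26 against H3.3 and 8 between the control viruses. Without both Q5A cohort 1 replicates 2 and 3, chosen after seeing the data, cohort 1 gave 0 calls with 585 rows at an unadjusted p under 0.05 (edgeR). Leaving out 1 library at a time gave 0 to 0 calls in the pooled comparison, 0 to 1 against GFP (Bc1, without Q5A cohort 2 replicate 1), 0 to 0 against H3.3 and 0 to 70 in cohort 1. The numbers of the labels did not pair the libraries, since same-numbered libraries of different viruses correlated at -0.31 to 0.12 (12 pairs) and differently numbered ones at -0.23 to 0.24 (36). With a replicate block the calls were 27 pooled (26 lower), 63 against GFP, 10 against H3.3 and 51 in cohort 1. The cause was not tested.

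Without 1 library at a time, 7 small pooled differences changed sign, and their values ran from -0.43 to 0.13 for C1qc (0.13 without H3.3 cohort 1 replicate 2), -0.036 to 0.25 for Foxb1, -0.031 to 0.21 for H3f3b, -0.083 to 0.21 for Hrh3, -0.38 to 0.10 for Ppp1r1b, -0.085 to 0.035 for Rarres2 and -0.0088 to 0.18 for Rgs5. With the replicate block Rarres2 was at 0.0040. Of 120 rows named in the pooled comparison, 1762 values without 1 library kept direction and call and 12 changed sign, and of the other values 826 kept both, 13 gained a call and 1 changed sign. Of 19 rows named in cohort 1, 74 values without 1 library lost the call and 154 kept it, and 23 of the others lost it and 91 kept it, with no change of sign. Equal weight for the control viruses and leaving out Rn18s-rs5, both chosen after seeing the data, gave 0 and 40 calls. Rows with few reads had larger standard errors.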
